A study of Zea mays with 6 samples.

Results

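Transcripts of 9 protein genes of the maize mitochondrial genome were examined in leaves of drought-stressed transgenic and control plants: cob (ZeamMp113), cox1 (ZeamMp136), cox2 (ZeamMp179), cox3 (ZeamMp161), atp1 (ZeamMp176), atp4 (ZeamMp051), atp6 (ZeamMp182), atp8 (ZeamMp081) and atp9 (ZeamMp108). They were taken by feature ID as the cytochrome and ATP synthase genes of the mitochondrion, and make up 9 of the 147 mitochondrial features and of the 33953 features in all. The transgenic seedlings of the inbred line KN5585, engineered for the synthesis of poly-γ-glutamic acid, a chain of glutamate units, gave 3 leaf libraries, and control seedlings of the same line gave 3. Both groups were at the 3-leaf stage and watering of both had been stopped for 5 days, which brought the soil to 9.8% water. The labels name neither the transgene, its promoter nor the number of transformation events, nor do they say that each library stands for a different plant, and the spread behind the p-values may therefore be technical. Unstressed plants were not analysed here, and no effect of drought can be read from the values.

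Mitochondria make ATP by passing electrons along the respiratory chain and letting the resulting proton gradient drive ATP synthase. Most proteins of these complexes are encoded in the nucleus and imported, but a small set of core subunits, the products of the 9 genes among them, is still made inside the organelle. Complex III, complex IV and ATP synthase are thus each built from the products of 2 genomes. The gene cob encodes cytochrome b of complex III, and cox1, cox2 and cox3 encode the core subunits of complex IV, cytochrome c oxidase, which hands the electrons to oxygen. Of the ATP synthase genes, atp1 encodes the alpha subunit of the catalytic head, atp4 a subunit of the stalk that holds the head in place, and atp6, atp8 and atp9 subunits of the membrane part, with atp6 at the proton channel and atp9 forming the rotating ring.

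All 9 genes fell in transgenic leaves, by between 6.08-fold for atp4 and 29.5-fold for cox1 as a ratio of mean FPKM (fragments scaled to gene length and library size, as deposited by the authors). The highest transgenic library lay below the lowest control library for 9 of 9 genes, as it did for 47.3% of all tested features. In the fit over all features (limma on log2(FPKM + 1), Benjamini-Hochberg adjusted p under 0.05), 9 of 9 passed as lower, against a background of 45.9% of features called lower. Of the 9, 5 had a transgenic mean below 1 FPKM and reached the minimum for testing through their control values, which favours a call as lower. Summed over the 9 genes, FPKM was 10.84, 13.47 and 13.8 in the transgenic libraries and 141.35, 151.93 and 132.88 in the control libraries. Of this sum cox1 held 3.64 to 8.30% in transgenic and 11.9 to 16.4% in control libraries, which did not overlap. In whole leaves, fewer cells or mitochondria with these transcripts and fewer transcripts in each cannot be told apart.

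The comparison reached most of the transcriptome. Over the 6 libraries 22200 features reached an average of 1 FPKM and were tested, and 5996 were higher and 10199 lower in transgenic leaves. After median-of-ratios scaling the split was 7986 higher and 7533 lower, and after quantile normalization 7196 higher and 8518 lower. Tested features had a median log2 fold change of -0.31 with values as deposited and 0.04 after median-of-ratios scaling, so that the members' changes are also given relative to it. Steps between low values gave depths of 0.962 to 1.03 relative to control replicate 1, and the absolute depth is unknown. As a check of the leaf label, 8 of 11 plastid genes of photosynthesis were measured, and 7 of them reached the minimum, of which transgenic leaves had 3 higher and 4 lower. Among the lower ones, psbA, the reaction centre gene of photosystem II, had 0.41 to 1.85 FPKM in transgenic and 153.1 to 165.76 FPKM in control leaves. The core genes of photosystem I, psaA and psaB, had 33.93 to 43.43 and 4.73 to 6.84 FPKM in transgenic leaves, against 3.58 to 4.62 and 0.8 to 1.33 FPKM in control leaves. The other tested genes differed less, with psbC 3.36-fold, psbB 2.19-fold and petB 1.78-fold lower in mean FPKM, and petA at 9.34 ± 0.781 FPKM in transgenic and 5.48 ± 1.37 FPKM in control leaves (SD, n = 3 each). The remaining gene, atpB, was below the minimum. The listed rbcL, psbD and atpA were not analysed here, and of nuclear genes no leaf or other cell type marker could be matched.

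Organelle features held a small part of the summed FPKM of each library. Mitochondrial features held 0.124 to 0.160% of FPKM in transgenic and 0.173 to 0.198% in control libraries, and plastid features 0.496 to 0.570% in transgenic and 0.193 to 0.221% in control libraries. The mitochondrial share includes copies of plastid sequence, which summed to 1431.73 to 1854.56 FPKM in transgenic and 743.81 to 1117.01 FPKM in control libraries. The other, native mitochondrial features summed to 99.61 to 117.84 FPKM in transgenic and 1310.76 to 1375.59 FPKM in control libraries. The libraries were made with a kit for mRNA, and whether the groups differed in how much organelle RNA it captured was not tested.

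**Figure D1:**
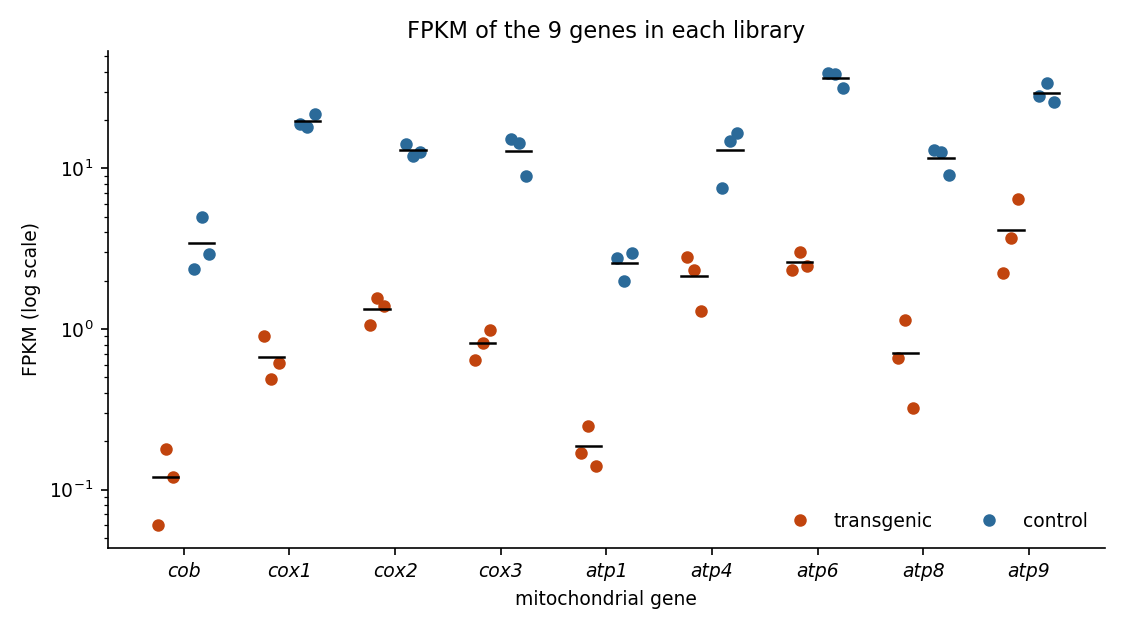
FPKM of each of the 9 mitochondrial genes (log axis) in the 3 transgenic libraries (orange, left) and the 3 control libraries (blue, right), with a line at the group mean. In 9 of 9 genes every transgenic point lies below every control point, and cob and atp1 are at the bottom in both groups.

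The complex III gene cob was the least abundant of the 9 in transgenic leaves, at 0.06, 0.18 and 0.12 FPKM, against 2.37, 5 and 2.94 FPKM in control leaves. The groups were far apart, although control replicate 2 stood above the other control libraries. The transgenic values were 1, 3 and 2 times the smallest of them, and the number of fragments behind them is not known. The fall was 28.6-fold in mean FPKM and 1.94 on the log2(FPKM + 1) scale (SE 0.26; limma, adjusted p = 0.000125). That scale cannot show more than a fall of 2.15 for a gene with the control level of cob.

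Among the complex IV genes, cox1, which encodes the subunit that carries the oxygen-reducing site, had 0.9, 0.49 and 0.61 FPKM in transgenic leaves and 18.95, 18.12 and 21.85 FPKM in control leaves. It ranked between the fifth and the seventh of the 9 in the transgenic libraries and was the third in each control library. With a fold change of -3.63 (SE 0.17; limma, adjusted p = 1.16e-07), cox1 lay among the lowest 1.72% of all tested features. A ratio of means as large as that of cox1 was reached by 2.02% of them.

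The gene of the copper-binding subunit that receives electrons from cytochrome c, cox2, had 1.06, 1.55 and 1.4 FPKM in transgenic leaves, against 14.21, 12 and 12.69 FPKM in control leaves. Its libraries were the most even of the complex IV genes, and its fall, 9.70-fold in mean FPKM, was the smallest of the 3. For cox3, the third core subunit, transgenic leaves had 0.64, 0.82 and 0.98 FPKM and control leaves 15.24, 14.48 and 8.99 FPKM. Control replicate 3 was low for cox3, but was still 9.17 times as high as the highest transgenic library. On the log2(FPKM + 1) scale cox2 changed by -2.58 (SE 0.16; limma, adjusted p = 9.19e-07) and cox3 by -2.91 (SE 0.22; limma, adjusted p = 3.09e-06).

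Of the ATP synthase genes, atp6, the proton channel gene, was the most abundant of all 9 in each control library. It had 2.33, 3.02 and 2.48 FPKM in transgenic and 39.08, 38.57 and 31.75 FPKM in control leaves. The libraries within a group were close together, with a coefficient of variation of 13.9% in transgenic and 11.2% in control leaves, and the transgenic mean was 7.16% of the control mean (log2 fold change -3.37, SE 0.14; limma, adjusted p = 6.25e-08). The ring subunit gene atp9 had 2.22, 3.68 and 6.45 FPKM in transgenic leaves and 28.11, 34.24 and 25.93 FPKM in control leaves. Transgenic replicate 3 stood highest, at 2.91 times the lowest transgenic library, and even so 4.02-fold below the lowest control library. In mean FPKM atp9 was 7.15-fold lower (log2 fold change -2.65, SE 0.28; limma, adjusted p = 2.65e-05).

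The small membrane subunit gene atp8 had 0.66, 1.14 and 0.32 FPKM in transgenic leaves and 13.09, 12.64 and 9.04 FPKM in control leaves. It had the widest relative spread of the 9 in transgenic leaves (coefficient of variation 58.3%), and its fall was 16.4-fold in mean FPKM (log2 fold change -2.89, SE 0.23; limma, adjusted p = 4.56e-06). The stalk gene atp4 came closest to overlapping, with 2.8, 2.34 and 1.3 FPKM in transgenic leaves and 7.53, 14.88 and 16.72 FPKM in control leaves. Control replicate 1 was low for atp4 and not for its partners, and it lay 2.69-fold above the highest transgenic library. The fall of atp4 was the smallest of the 9 in mean FPKM, 6.08-fold (log2 fold change -2.12, SE 0.30; limma, adjusted p = 0.00021), a size that 7.86% of all tested features reached.

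The catalytic head gene atp1 had 0.17, 0.25 and 0.14 FPKM in transgenic and 2.77, 2 and 2.97 FPKM in control leaves. A second copy of the gene, ZeamMp163, had the same FPKM in every library, and reads of the copies cannot be told apart. The fold change of atp1 was -1.58 (SE 0.21; limma, adjusted p = 0.000139), the smallest of the 9 on the log2(FPKM + 1) scale, where a gene with its control level cannot fall by more than 1.84. In mean FPKM the fall was 13.8-fold, and the transgenic mean of 7.24% of the control mean was close to that of atp6. In transgenic leaves 5 of the 9 genes (cob, cox1, cox3, atp1 and atp8) had a mean below 1 FPKM. These passed the minimum of 1 FPKM through their control values.

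The order in which the genes fell therefore depended on the scale. With no pseudocount, which is possible because 9 of 9 genes were above 0 in every library, cox1 and cob had the greatest falls, with log2 fold changes of -4.92 (SE 0.28) and -4.90 (SE 0.62). Next came atp8 with a change of -4.20, cox3 with -3.97, atp1 and atp6 with -3.81 each, cox2 with -3.29, atp9 with -2.96 and atp4 with -2.59. The gene cob moved from the eighth place with a pseudocount of 1 to the second place with none, and atp6 from the second to the sixth, whereas cox1 stood first on both scales. After subtraction of the median over all features, the changes on the log2(FPKM + 1) scale were between -1.28 for atp1 and -3.33 for cox1.

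**Figure D2:**
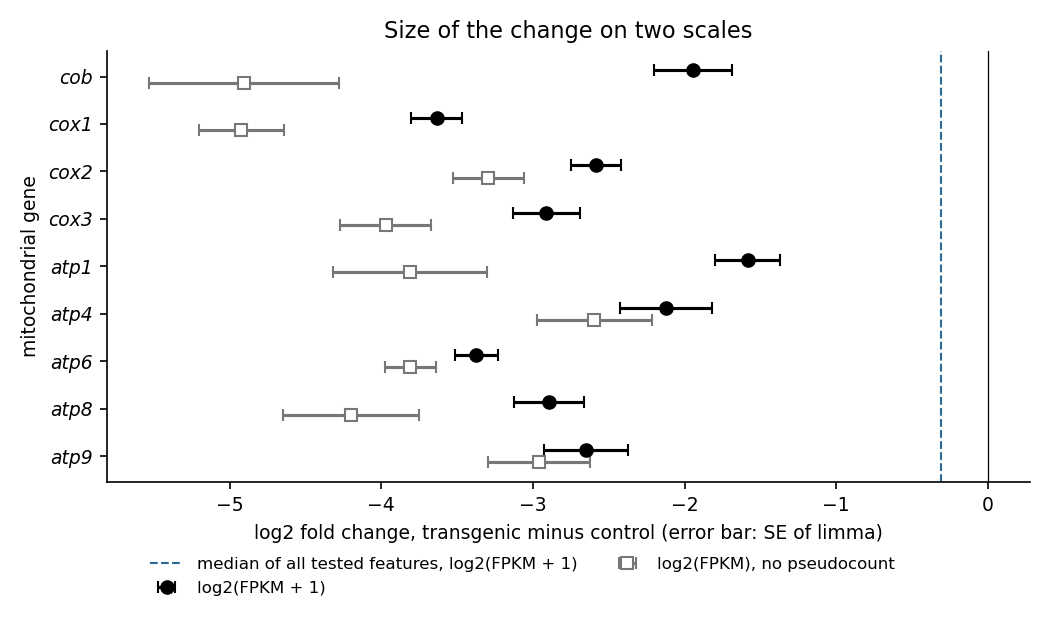
Log2 fold change of each gene, transgenic minus control, with the SE of limma as error bar, on log2(FPKM + 1) (filled circles) and on log2(FPKM) with no pseudocount (open squares); the dashed line is the median of all tested features on the first scale, at -0.31. Each gene lies left of the dashed line on both scales, and cob and atp1, with the lowest levels, differ most between the scales.

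Rank order was only partly kept between the groups. By mean FPKM, which is scaled to a gene length that the authors' annotation set, the order in transgenic leaves was atp9, atp6, atp4, cox2, cox3, atp8, cox1, atp1 and cob. In control leaves it was atp6, atp9, cox1, atp4, cox2, cox3, atp8, cob and atp1. The second place was that of atp6 in each transgenic library and that of atp9 in each control library, where atp6 came first. The pair cob and atp1 held the last 2 places in each of the 6 libraries. How reads of the atp1 copies were counted is not known, and if they were split between the copies the level of atp1 would be understated, so that its place among the lowest genes, and its order with cob in control leaves, is not settled. In transgenic leaves the ranges of cox3, atp8 and cox1 overlapped one another, and so did those of atp9, atp6 and atp4. In control leaves atp4, cox2, cox3 and atp8 had overlapping ranges, so that their order there was within the spread.

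Shares of the summed FPKM of the 9 genes show the same within each library. The share of cox1 was 8.30%, 3.64% and 4.42% in transgenic and 13.4%, 11.9% and 16.4% in control libraries. Likewise atp6 held 21.5%, 22.4% and 18.0% in transgenic and 27.6%, 25.4% and 23.9% in control libraries. These shares and that of cob (0.554 to 1.34% in transgenic, 1.68 to 3.29% in control) did not overlap between the groups and were lower in transgenic leaves. Shares of the same sum are not independent, as a rise of any lowers the rest. How often such shares separate among other genes was not computed. The largest transgenic share was that of atp9, at 20.5%, 27.3% and 46.7%, against 19.9%, 22.5% and 19.5% in control libraries. Its mean was pulled up by transgenic replicate 3, and the ranges overlapped. For atp4 the shares were 25.8%, 17.4% and 9.42% in transgenic and 5.33%, 9.79% and 12.6% in control libraries, with transgenic replicate 3 inside the control range. With 3 libraries a group the exact permutation test cannot give a p below 0.1 (two-sided), which cob, cox1 and atp6 reached (adjusted p = 0.3 over the 9 shares), so that no share passed the threshold.

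**Figure D3:**
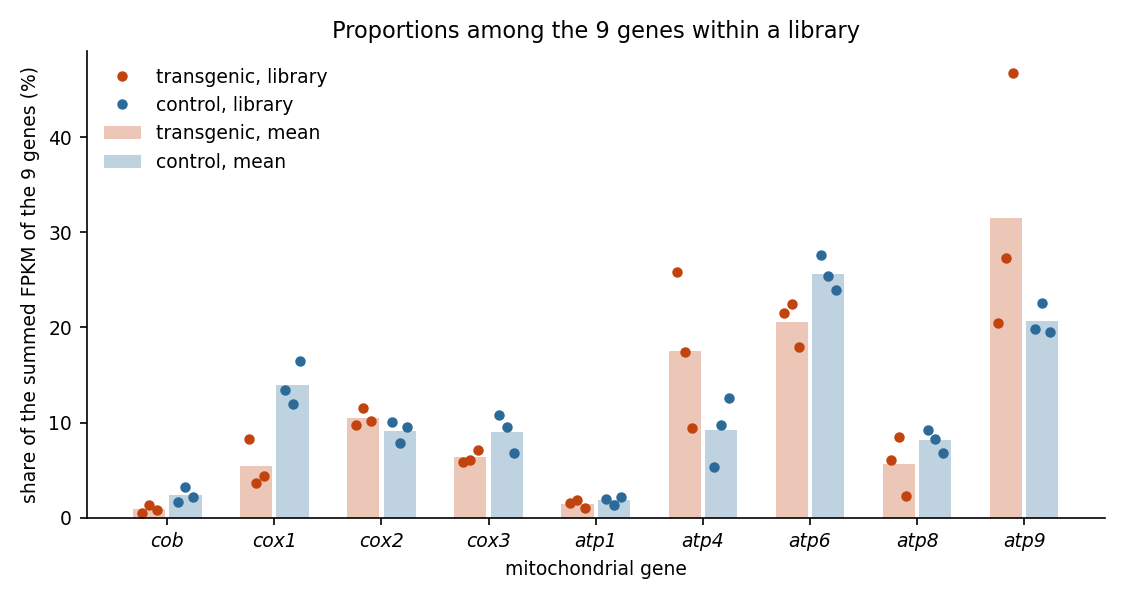
Share of each gene in the summed FPKM of the 9 genes of the same library (%), as points for the 3 transgenic libraries (orange, left) and the 3 control libraries (blue, right), with bars at the group means. The points of cob, cox1 and atp6 do not overlap between groups and are lower in transgenic leaves, and those of atp4 and atp9 are widely spread in transgenic leaves.

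Ratios between genes of the same library do not depend on how libraries are scaled against each other. In complex IV, cox1 stood to cox2 as 0.849, 0.316 and 0.436 in transgenic libraries and as 1.33, 1.51 and 1.72 in control libraries. The more abundant of these partners was thus cox2 in each transgenic and cox1 in each control library. The ratio of cox2 to cox3 was 1.66, 1.89 and 1.43 in transgenic and 0.932, 0.829 and 1.41 in control libraries, which were separated by a narrow margin. For cox1 to cox3 the ranges overlapped, at 0.598 to 1.41 in transgenic and 1.24 to 2.43 in control libraries.

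Within ATP synthase, 4 of 10 ratios did not overlap between the groups. The largest shift was that of atp4 to atp8, at 4.24, 2.05 and 4.06 in transgenic and 0.575, 1.18 and 1.85 in control libraries. By contrast, the ratio of the head gene atp1 to the channel gene atp6 was 0.0730, 0.0828 and 0.0565 in transgenic and 0.0709, 0.0519 and 0.0935 in control libraries, with a mean log2 difference of -0.004. The transgenic values of that ratio lay inside the control range. A pair from different complexes, cob to cox1, also had overlapping ranges and a mean log2 difference of 0.02, with wide spreads of 0.0667 to 0.367 in transgenic and 0.125 to 0.276 in control libraries. The greatest difference of all 36 pairs was that of cox1 to atp4, at 0.321, 0.209 and 0.469 in transgenic and 2.52, 1.22 and 1.31 in control libraries.

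Of the 36 ratios, 17 did not overlap between the groups, 2 of 3 within complex IV, 4 of 10 within ATP synthase and 11 of 23 across complexes. The share among pairs of other features was not computed, so these counts cannot be called particular to the 9 genes. Each of the 17 ratios had the smallest p that the exact permutation test can give, 0.1, and an adjusted p of 0.212 over the 36 pairs, so that 0 pairs passed the threshold and none could have in this design. With a pseudocount of 1, 20 ratios did not overlap, 8 of them the same as without one, and 14 of the 36 differences had the other sign. The summed FPKM of the ATP synthase genes was 3.15, 3.65 and 3.58 times that of the cox genes in transgenic libraries and 1.87, 2.29 and 1.99 times in control libraries.

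Within a group most of the 9 genes deviated in the same direction in some libraries. Control replicate 3 was below the group mean for 6 of 9 genes, and transgenic replicate 1 for 7 of 9, while transgenic replicate 2 was above it for 7 of 9. The median deviations of the libraries were between -0.13 and 0.13 on the log2(FPKM + 1) scale, which understates differences between low values. The coefficient of variation of a gene had a median over the 9 of 31.6% in transgenic and of 19.2% in control leaves, where the levels were higher.

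Neighbours on the chromosome add a comparison. Gene order was taken from the RefSeq table for Zm-B73-REFERENCE-NAM-5.0, of a line other than KN5585, and 0 of the 9 genes overlap another feature there. Neighbours were sought among measured features only, so that an unmeasured feature may lie between. Of 17 features next to a member, 13 had a mean below 1 FPKM and 4 were tested. Of these, orf110-c next to cox2 was 10-fold lower in mean FPKM, beside 9.70-fold for cox2. The neighbour of cob, rps13, was 10.8-fold lower, beside 28.6-fold for cob, and did not pass. The open reading frame next to cox1, orf147-b (ZeamMp137), had 1.03, 1.02 and 0.5 FPKM in transgenic and 27, 24.25 and 26.87 FPKM in control leaves. Its fall of 30.6-fold was close to that of cox1, and the ratio of cox1 to it was 0.480 to 1.22 in transgenic and 0.702 to 0.813 in control libraries. The open reading frame next to atp4, orf99-d (ZeamMp050), had 8.21, 8.17 and 6.66 FPKM in transgenic and 16.55, 12.76 and 14.1 FPKM in control leaves, a fall of 1.88-fold. The ratio of atp4 to orf99-d was 0.195 to 0.341 in transgenic and 0.455 to 1.19 in control libraries, which did not overlap (exact permutation test, p = 0.1, the smallest possible; adjusted p = 0.3 over 3 such pairs).

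**Figure D4:**
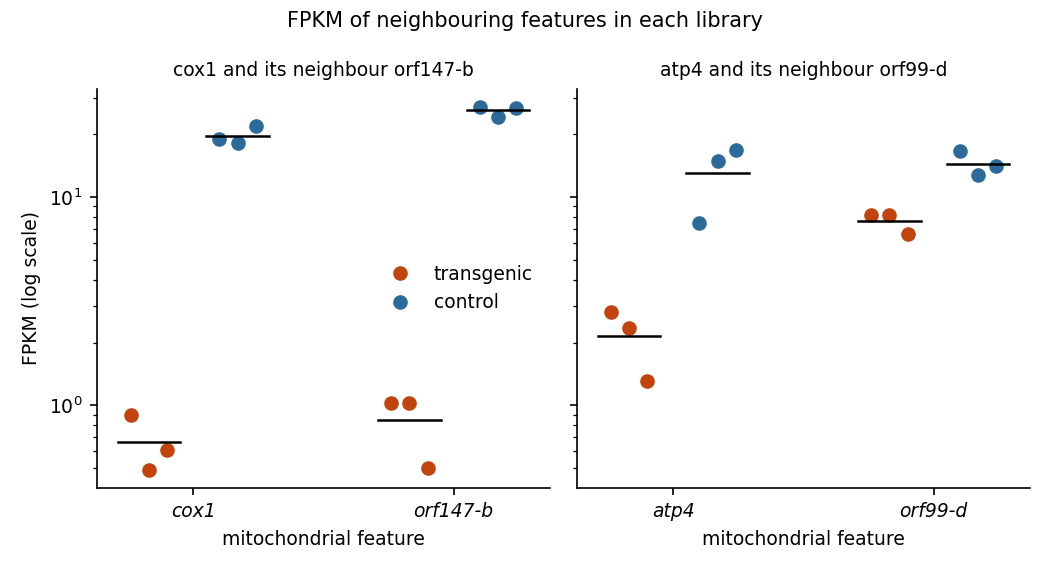
FPKM (log axis) of cox1 and the adjoining orf147-b, and of atp4 and the adjoining orf99-d, in the 3 transgenic (orange, left) and 3 control libraries (blue, right), with lines at the group means. In transgenic leaves cox1 and orf147-b are near 1 FPKM or below and atp4 and orf99-d are further apart than in control leaves.

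Other gene groups of the mitochondrion were set beside the 9 genes. Complex I, where electrons enter the chain, had 6 of 9 listed genes in the files and 5 tested. Of these 4 fell (2 with libraries scaled to a total of 1000000, where fewer reached the minimum), against 45.9% of all tested features called lower. The nad transcripts were at most 0.88 FPKM in transgenic leaves. Those tested thus reached the minimum through their control values, which favours a call as lower. The 5 tested genes had a median log2 fold change of -1.27, against -2.65 for the 9 members and -0.31 for all tested features. Examples are nad3, at 0.65, 0 and 0.42 FPKM in transgenic and 6.28, 3.99 and 3.05 FPKM in control leaves, and nad9, at 0.26, 0.65 and 0.88 FPKM in transgenic and 4.38, 3.13 and 2.67 FPKM in control leaves. The nad transcripts were at most 6.28 FPKM, so that on the log2(FPKM + 1) scale their falls were limited as for cob and atp1. In mean FPKM nad3 was 12.4-fold, nad9 5.69-fold and nad4 7.38-fold lower, and nad4L, the 1 that did not pass, was listed at 0 in 2 transgenic libraries and 1 control library.

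Ribosomal protein genes of the mitochondrion, of which 7 were tested, had a median log2 fold change of -1.49. Of the 7, 3 fell, which is near the 45.9% of all tested features called lower. Those that fell were rps7, at 1.06 ± 0.674 FPKM in transgenic and 9.91 ± 4.89 FPKM in control leaves, rps12, at 1.46 ± 0.641 FPKM in transgenic and 10.2 ± 5.42 FPKM in control leaves, and rps2B, at 1.69 ± 0.335 FPKM in transgenic and 9.79 ± 2.25 FPKM in control leaves (SD, n = 3 each). The other 4, rpl16, rps1, rps13 and rps2A, did not pass. Without control replicate 2, 5 fell and rpl16 rose, and rpl16 also passed as higher with median-of-ratios scaling, quantile normalization and the replicate number as a block. The 4 listed genes for the maturation of c-type cytochromes, the electron carriers between complexes III and IV, were below the minimum. Of these, ccmC was at 0 in each transgenic library and at 0.78, 1.18 and 0.66 FPKM in control leaves. The maturase gene mat-r, the 1 of 2 listed maturase and transport genes in the files, was also below the minimum, at 0.03 to 0.39 FPKM in transgenic and 0.2 to 0.72 FPKM in control leaves.

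Not every mitochondrial feature was lower. Of 20 tested open reading frames counted once, 9 fell, orf106-b rose and 10 did not pass. Apart from orf99-d and orf111-b, those that fell had transgenic means below 1 FPKM. They reached the minimum through their control values, which favours a call as lower. Over all tested features 45.9% were called lower, a share near that of the open reading frames, and 27% higher. The most abundant native one, orf111-b (ZeamMp158), fell to 21.2, 24.8 and 25.02 FPKM in transgenic leaves, against 1002.1, 1038.38 and 992.81 FPKM in control leaves. Of the copies of plastid sequence in the mitochondrion 5 were tested, and 3 rose, orf134-a-ct fell and 1 did not pass. Among those that rose, rps7-ct had 441.98, 488.82 and 437.43 FPKM in transgenic and 208.07, 181.49 and 189.87 FPKM in control leaves. Whether reads of these copies came from plastid transcripts was not tested. Of the summed FPKM of native mitochondrial features other than orf111-b, the 9 genes held 13.8 to 16.4% in transgenic and 39.8 to 45.1% in control libraries. That contrast rests on leaving out orf111-b. With orf111-b included, the mean native sum was 12.4-fold lower in transgenic leaves, beside 11.2-fold for the 9 genes. Without orf111-b it was 3.95-fold lower.

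Plastid counterparts of these enzymes gave a further comparison. The plastid ATP synthase, which works on the same principle with light-driven protons, had 4 tested genes. Of these 3 rose, against 27% of all tested features called higher, and the median log2 fold change was 2.06. The largest rises were those of atpE, at 51.4 ± 3.15 FPKM in transgenic and 0.843 ± 0.753 FPKM in control leaves, atpF, at 535.7 ± 61.4 FPKM in transgenic and 75.7 ± 8.86 FPKM in control leaves, and atpI, at 2.78 ± 0.664 FPKM in transgenic and 0.503 ± 0.153 FPKM in control leaves (SD, n = 3 each). The control means of atpE and atpI were below 1 FPKM. Both reached the minimum through their transgenic values, which favours a call as higher. Without transgenic replicate 3, 5 plastid ATP synthase genes passed as higher. Of 6 genes of the cytochrome b6f complex, the plastid relative of complex III, 3 rose, petD and petB fell and 1 did not pass, against 45.9% of all tested features called lower. For petD the mean was 10.2 ± 2.25 FPKM in transgenic and 45.7 ± 9.07 FPKM in control leaves, for petN 15.9 ± 2.67 FPKM in transgenic and 7.08 ± 3.89 FPKM in control leaves, and for petG 86.9 ± 15.2 FPKM in transgenic and 43.6 ± 9.29 FPKM in control leaves. Only 1 of these genes fell with median-of-ratios scaling, quantile normalization, no filter or a minimum of 5 FPKM, and without transgenic replicate 1, transgenic replicate 2 or control replicate 3. The difference between the mitochondrial and plastid lists was not tested.

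**Figure D5:**
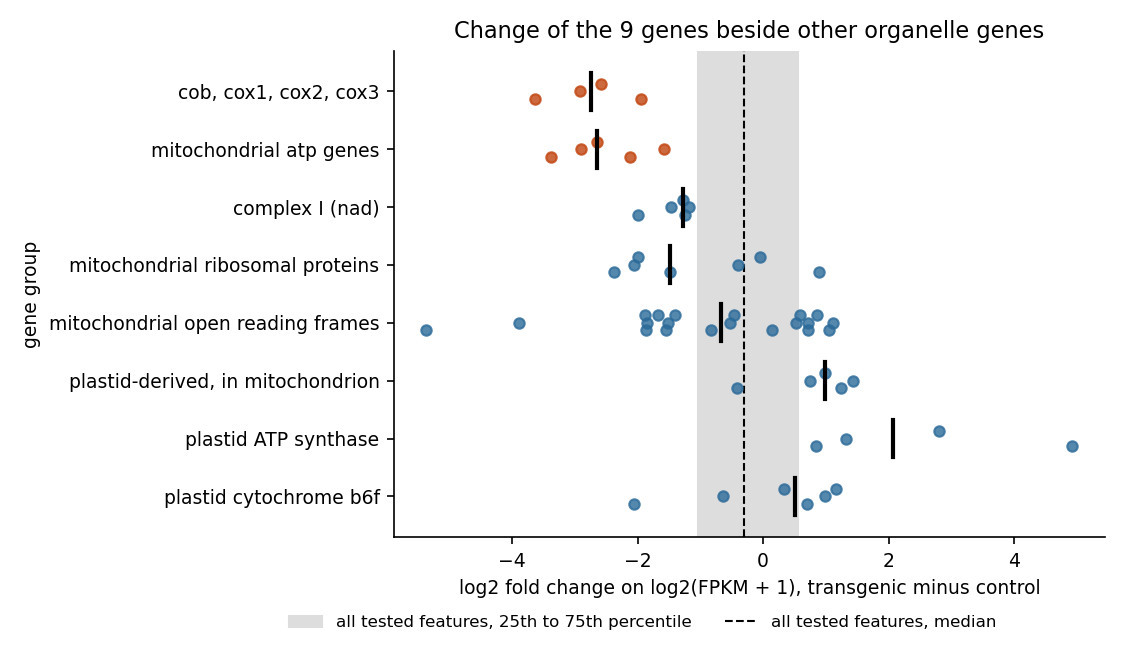
Log2 fold change on log2(FPKM + 1), transgenic minus control, of tested genes by group, with a bar at the group median; the 9 members are orange, the grey band is the 25th to 75th percentile of all tested features (-1.03 to 0.55) and the dashed line their median. The 9 members all lie left of the band, as do the tested complex I genes, while the 4 plastid ATP synthase genes lie right of it.

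The genes whose pattern over the 6 libraries was most like the mean profile of the 9 were sought among 81 other tested organelle genes with a named product. By Euclidean distance between centred log2(FPKM + 1) profiles these were petD of the plastid (0.94), rps2B (0.95), rps7 (1.18), nad3 (1.19) and psbC of the plastid (1.21). The 9 genes themselves lay between 0.30 (cox2) and 1.36 (atp1) from their mean. The distance is set mainly by the size of the difference between the groups, since within-group deviations were small beside it.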

How the data were processed

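RNA from leaves was sequenced in 6 libraries, 3 transgenic and 3 control, each prepared with a SMARTER kit for mRNA (input 1.3 µg total RNA), per the labels' protocols. The authors deposited FPKM values rounded to 2 decimals, 1 file per library, per the file headers. How reads were aligned and counted, and with which annotation, is not given in the sources used here. Those builds that the submitters' processing notes list, GRCm38 and mm10, are those of mouse and do not match the maize IDs, so no coordinates or lengths are given. All 147 mitochondrial IDs and 0 of 33702 nuclear IDs had a symbol in the RefSeq gene table for Zm-B73-REFERENCE-NAM-5.0.

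Transgenic and control libraries were compared by limma 3.58.1 in R 4.3.3 on log2(FPKM + 1) (lmFit, eBayes with trend, two-sided, Benjamini-Hochberg over all features with mean FPKM of at least 1, threshold 0.05). Fold changes are transgenic minus control, which this scale understates for low genes. Ratios and shares were tested by exact permutation in Python 3.11.15. The members, lists and rules were chosen with earlier results of these data known. Named besides the members are up to 3 genes of each list with the largest change among those past the threshold without overlap between groups, and the 5 organelle genes with the nearest profile. Other genes, and the ratios described singly, were picked after their values were seen. In the lists, identical copies were counted once and plastid-derived features kept apart. Sums over mitochondrial features counted every copy, and the mitochondrial share of all FPKM included plastid-derived features. Alternatives covered scaling, pseudocount, minimum FPKM, variance trend, replicate block and leaving out each library.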

Additional observations from a re-analysis of the deposited data

How the results depend on the processing

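Of 142 values of the 9 members under 16 alternatives, 142 kept their direction and their side of the threshold. With a minimum mean FPKM of 5, cob and atp1 were not tested and 7 members were lower. The settings with no pseudocount were added after seeing the data. When each library was left out in turn, 5358 to 5988 features were higher and 9593 to 9998 lower, with 0 members higher and 9 lower each time. It gave 3 to 4 complex I genes lower, 3 to 5 mitochondrial ribosomal protein genes lower and 0 to 1 higher, 3 to 5 plastid ATP synthase genes higher and 1 to 2 cytochrome b6f genes lower. Of the 36 member ratios, 17 did not overlap between groups with no pseudocount, 14 with a pseudocount of 0.1, 16 with 0.5 and 20 with 1. With a pseudocount of 1 the count was 20 to 26 when a library was left out, which leaves fewer values that could overlap. With 1000000 FPKM per library, 2 complex I genes were lower, and with the minimum of 5, 0 were, as fewer were tested. With no filter, 2 cytochrome c maturation genes, 5 ribosomal protein genes and 1 cytochrome b6f gene were lower. The cytochrome b6f count was also 1 with median-of-ratios scaling, quantile normalization and the minimum of 5. In these scalings 1 ribosomal protein gene was higher. The causes were not tested further. With the replicate block, 5935 features were higher and 10087 lower, 1 ribosomal protein gene was higher, and 9 members stayed lower. Same-numbered libraries correlated at 0.006, -0.001 and 0.015 in their deviations, which gives no ground for pairing them. The absolute depth is unknown, and how far it limits each member cannot be given. The transgenic values of cob and atp1 were at most 0.25 FPKM.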
